A study of Mus musculus with 6 samples.

Results

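The perilipins and the enzymes that fill and empty lipid droplets were examined in bulk RNA sequencing of the mouse substantia nigra, a midbrain nucleus rich in dopaminergic neurons. The 10 genes were listed by name: the droplet coat genes Plin1, Plin2, Plin3, Plin4 and Plin5, the triglyceride synthesis genes Dgat1 and Dgat2, the lipase genes Pnpla2 and Lipe, and the lipase inhibitor gene Hilpda. All 10 were found by symbol among 55335 genes in each count file. The list was built around Plin4, which was selected on its difference between these same libraries, where its unadjusted p ranked 1 among 18870 genes. The difference of Plin4 is therefore given below as a description with no test. The other members were chosen for what they are known to do, though with earlier results of these data known. The question was whether Plin4 moved with its family.

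Libraries from C57 mice were compared in 2 groups of 3. The control libraries are titled WT, with genotype WT. The other libraries have the genotype shDNAJB1, a short hairpin RNA against Dnajb1, which codes for a co-chaperone of HSP70. The series set out to find the transcripts that change in this tissue when Dnajb1 is knocked down. Not given in the sources used here are the age and sex of the mice, how and in which cells the hairpin was delivered, and whether the controls received one. Separate animals per library are not stated in the labels, and p-values therefore speak only of the spread between these 6 libraries, which may be technical.

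Lipid droplets are stores of triglyceride and sterol ester wrapped in a single layer of phospholipid, and perilipins are the proteins that coat that surface and control the access of lipases. DGAT enzymes make the triglyceride, and the lipases known as ATGL and HSL, coded by Pnpla2 and Lipe, break it down to fatty acids. In brain, droplets are best known from glia, ependymal cells and cells under metabolic stress, and Plin2 is their usual marker.

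The libraries held 24541386 to 38468363 counts. Dnajb1, the target, was measured at 59.8, 47.2 and 51.9 CPM in the control libraries, against 44.3, 52.4 and 52.5 CPM in those labelled shDNAJB1, where CPM is the count scaled to the library's size by TMM. Its log2 difference, shDNAJB1 minus control, was -0.09 (SE 0.13, 95% interval -0.39 to 0.21, edgeR adjusted p = 0.909 over all genes by its quasi-likelihood test), and it was 0.011 without control 1. No fall of the target was thus detected, and every direction below refers to the label of the library. The tissue marker Th, the gene of the enzyme that makes the precursor of dopamine, was present in every library, at 97.0 to 418 CPM, lowest in shDNAJB1 3. Gad1, a marker of GABAergic neurons, was 56.1 CPM in shDNAJB1 3 and 243 to 882 CPM in the others. Without that library and control 1, in which Plin4 was lowest, the log2 difference was 1.19 for Plin4 and 0.18 for Dgat1. Over all genes tested the median log2 difference was 0.01, and 50.8% of genes had a higher value in the libraries labelled shDNAJB1.

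Plin4 codes for perilipin 4, a coat protein with a long amphipathic helix, known best from adipose tissue and muscle. The gene (ENSMUSG00000002831) takes up mm10 chromosome 17 from 56100591 to 56109803, minus strand. Its transcript in the GENCODE M21 annotation has 5756 bases in 9 exons, of which 4209 are coding. A tandem repeat with a unit of 99 bases, or 33 codons, runs over 2798 bases of exons 5 and 6 and makes up 66.5% of the coding sequence. Neighbouring units of the run were 75.0% identical on average. Units are shown because the run makes up 48.6% of the transcript whose reads were counted. The 3 below follow one another in exon 5 and were picked as the in-frame 3 in a row most alike. They are therefore more alike than the average of the run. Capitals mark the bases that differ from the first unit shown. The units are on the minus strand of mm10 at chr17:56106304-56106402, chr17:56106205-56106303 and chr17:56106106-56106204.
Plin4 unit 1: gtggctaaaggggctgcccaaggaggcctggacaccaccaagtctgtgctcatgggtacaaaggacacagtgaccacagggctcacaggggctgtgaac
Plin4 unit 2: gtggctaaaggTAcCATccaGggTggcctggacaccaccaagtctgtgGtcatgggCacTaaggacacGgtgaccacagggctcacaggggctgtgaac
Plin4 unit 3: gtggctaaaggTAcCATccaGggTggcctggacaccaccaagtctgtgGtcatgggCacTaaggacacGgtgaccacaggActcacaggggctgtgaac
Unit 2 differed from unit 1 at 11 bases and unit 3 at 12. Stretches of 50 bases that occur more than once in the same transcript made up 17.4% of Plin4 and 0% of each of the other 9 members. Of 21830 protein-coding genes, 94.5% had no such stretch, and 63, or 0.289%, had a share at or above that of Plin4. None of the stretches of Plin4 occurred in an annotated transcript of another gene. Only exact matches in transcripts were searched, so matches of Plin4 reads elsewhere in the genome, or with mismatches, were not examined. The sources used here do not give the rule for counting reads with several matches. The annotated exons of Plin4 share 17 bases with Hdgfl2, a gene on the opposite strand.

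Plin4 was higher in each library labelled shDNAJB1 than in any control library. It had 675, 909 and 865 counts in the control libraries, against 1612, 1979 and 2311 in those labelled shDNAJB1, each in the order 1, 2 and 3. In CPM these were 18.5, 31.5 and 28.8 against 65.4, 71.0 and 59.2. The groups did not overlap: the lowest shDNAJB1 library, number 3, was above the highest control, number 2. The mean was 26.3 ± 6.83 CPM (SD, n = 3) in control, against 65.2 ± 5.89 CPM (SD, n = 3), and the fitted log2 difference was 1.31 (SE 0.20), or 2.48-fold. Control 1 was the lowest library, and without it the log2 difference was 1.12. In bulk tissue, a change in the number of cells that express Plin4 cannot be told apart from a change in Plin4 RNA per cell.

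**Figure D1:**
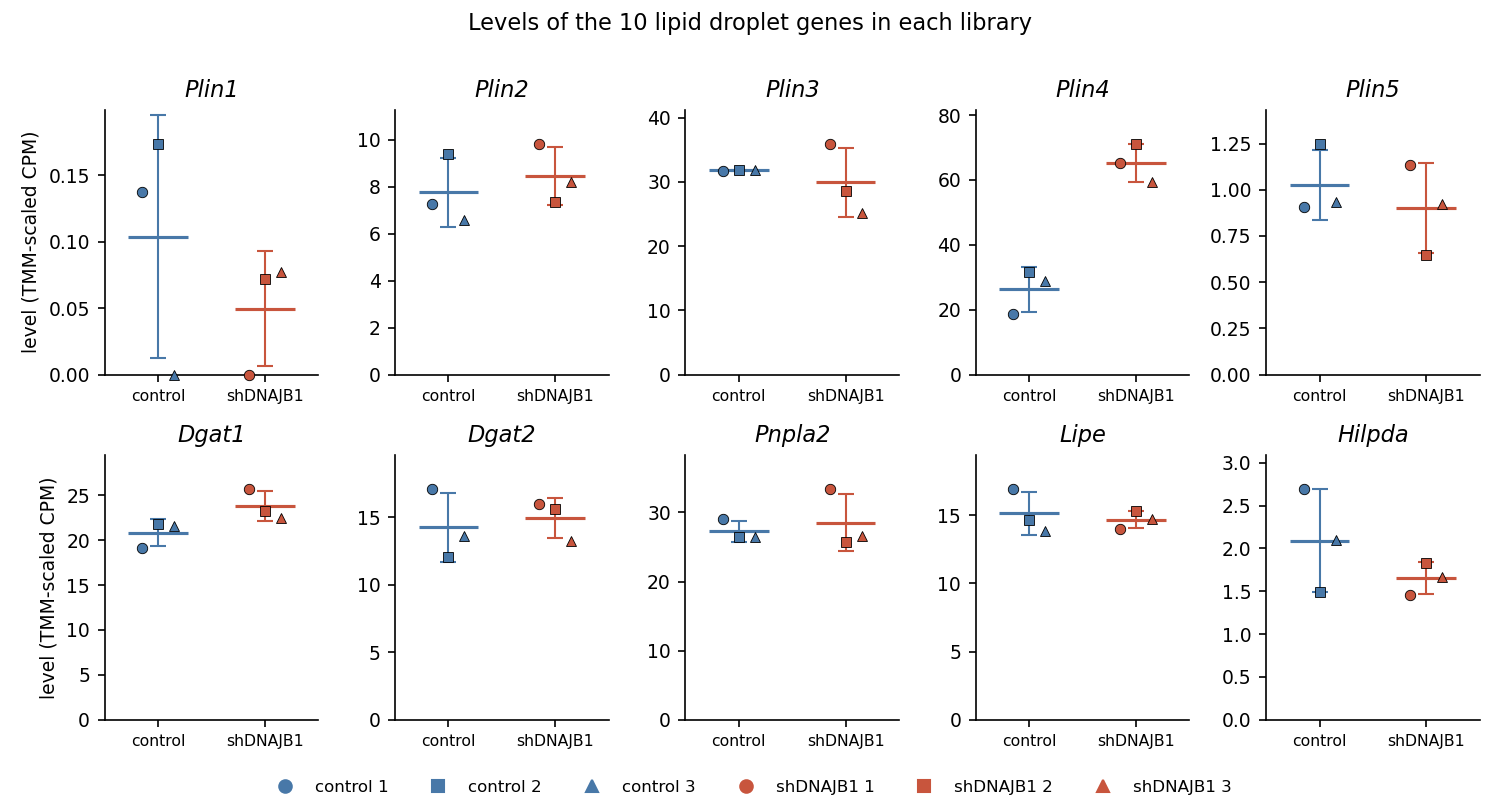
Level of each of the 10 lipid droplet genes in each library, in TMM-scaled CPM on linear axes from 0, with a separate scale per gene. Points are libraries, horizontal lines are group means and error bars are 1 SD (n = 3); Plin4 lies at 59.2 to 71.0 in the shDNAJB1 libraries and 18.5 to 31.5 in control, and of the other genes only Dgat1 has groups that do not overlap.

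Plin2 codes for the perilipin that coats droplets in most cell types. It had 265, 272 and 198 counts in control and 242, 205 and 320 in the libraries labelled shDNAJB1, or 7.27, 9.42 and 6.59 against 9.81, 7.36 and 8.20 CPM. The groups overlapped, and the highest value of each was close to the other's. The log2 difference was 0.12 (SE 0.20), with a 95% interval of -0.35 to 0.60 and an edgeR adjusted p = 0.923. It was 0.0037 without shDNAJB1 1 and 0.28 without control 2.

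Plin3, the perilipin that sits in the cytosol and moves to newly formed droplets, was the second most abundant member in control per length. It was measured at 31.6, 31.9 and 31.8 CPM in control, a narrow range, and at 35.9, 28.6 and 25.2 CPM in the libraries labelled shDNAJB1. The controls lay inside the range of the other group. The log2 difference was -0.09 (SE 0.14), with a 95% interval of -0.42 to 0.25 and an edgeR adjusted p = 0.921, and it was 0.022 without shDNAJB1 3.

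Plin5, a perilipin of oxidative tissues that tethers droplets to mitochondria, was low, with 33, 36 and 28 counts in control and 28, 18 and 36 in the libraries labelled shDNAJB1. These were 0.906, 1.25 and 0.932 against 1.14, 0.646 and 0.923 CPM, and the groups overlapped. Its log2 difference was -0.19 (SE 0.36), with a 95% interval of -1.03 to 0.65 and an edgeR adjusted p = 0.933. At these counts the counting error alone was 16.7% to 23.6% per library, so a modest difference was not detectable. Without shDNAJB1 2, the lowest library, the log2 difference was 0.0073.

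Plin1, the perilipin of adipocytes, did not pass the filter on low counts and was not tested. It had 5, 5 and 0 counts in control and 0, 2 and 3 in the libraries labelled shDNAJB1. Summed over each group these were 10 and 5 counts, or 0.105 CPM (exact Poisson 95% interval 0.0503 to 0.193) and 0.0546 CPM (0.0177 to 0.127). The intervals overlap and cover counting error only, so no difference was detectable at this depth.

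**Figure D2:**
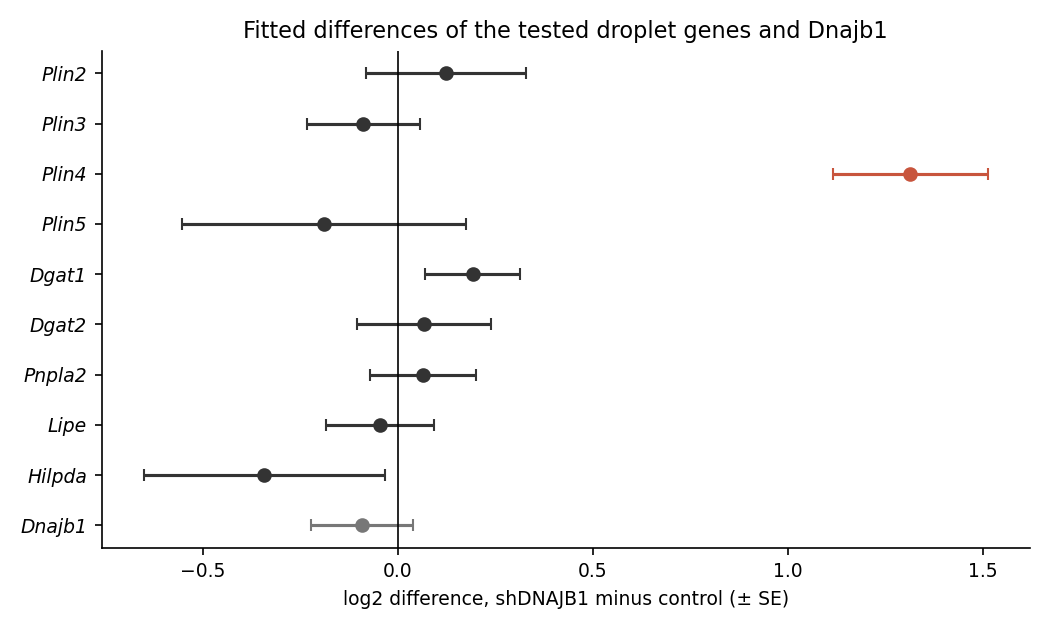
Fitted log2 difference, shDNAJB1 minus control, of the 9 tested droplet genes and of Dnajb1, with error bars of 1 SE. Plin4 is at 1.31, the other 8 droplet genes lie between -0.34 and 0.19, and Dnajb1 is at -0.09.

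Plin4 stood apart from the other perilipins in these libraries. The gap between log2 CPM of Plin4 and the mean log2 CPM of Plin2, Plin3 and Plin5 was 1.61, 2.10 and 2.28 in the control libraries, against 3.12, 3.74 and 3.33 in those labelled shDNAJB1. These groups did not overlap, and their means differed by 1.40. The same gap taken from the fitted differences was 1.36, and it lay between 1.20 and 1.52 when each library was left out in turn. As Plin4 was chosen for its own contrast, the gap carries no test.

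Per length, the make-up of the family differed between the groups. Dividing CPM by the kilobases of annotated exon, Plin4 took 22.8%, 31.7% and 31.7% of the summed perilipin level in the control libraries, against 46.9%, 55.2% and 52.0% in those labelled shDNAJB1. Plin3 took 53.9% ± 5.15 (SD, n = 3) of that sum in control and 35.7% ± 3.10 (SD, n = 3) in the libraries labelled shDNAJB1. The summed level was 14.1, 17.2 and 15.7 CPM per kb against 24.1, 22.3 and 19.7 CPM per kb. Without Plin4 it was 10.9, 11.7 and 10.7 against 12.8, 9.98 and 9.46 CPM per kb, and these groups overlapped. Since shares sum to 100%, the lower share of Plin3 says nothing about its level, which is given above.

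**Figure D3:**
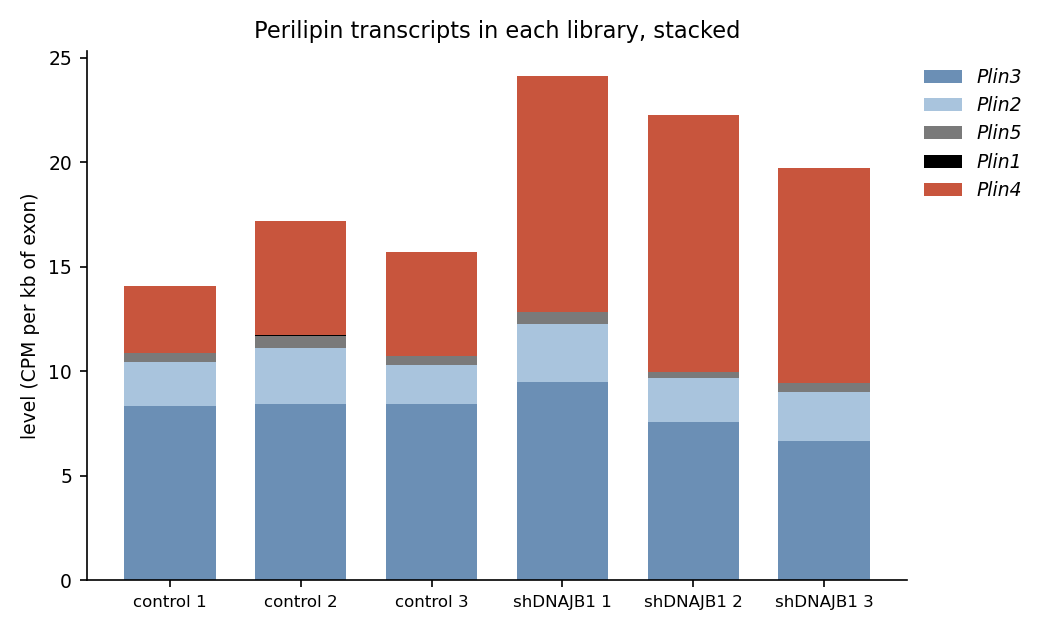
Level of each perilipin in each library, in CPM per kb of annotated exon, stacked. The stack reaches 14.1 to 17.2 in control and 19.7 to 24.1 in the shDNAJB1 libraries; the red Plin4 segment differs most in height, and Plin1 is too low to see in most libraries.

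Dgat1 and Dgat2 code for the enzymes that add the last fatty acid to make triglyceride. Dgat1 was measured at 19.1, 21.8 and 21.6 CPM in control and at 25.7, 23.3 and 22.5 CPM in the libraries labelled shDNAJB1. The groups did not overlap, but the highest control and the lowest shDNAJB1 library were close. The log2 difference of Dgat1 was 0.19 (SE 0.12), with a 95% interval of -0.09 to 0.47 and an edgeR adjusted p = 0.789. Dgat2 was measured at 17.1, 12.1 and 13.6 CPM in control and at 16.0, 15.6 and 13.3 CPM in the other group, inside the range of control. Its log2 difference was 0.07 (SE 0.17), with a 95% interval of -0.33 to 0.46 and an edgeR adjusted p = 0.953, and it was -0.04 without control 2.

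Pnpla2, which codes for ATGL, the lipase that takes the first fatty acid off triglyceride, was measured at 29.0, 26.4 and 26.4 CPM in control. It was at 33.3, 25.7 and 26.6 CPM in the libraries labelled shDNAJB1, of which the first alone was above all controls. The log2 difference was 0.06 (SE 0.14), with a 95% interval of -0.25 to 0.38 and an edgeR adjusted p = 0.940, and it was -0.06 without shDNAJB1 1. Lipe, which codes for HSL, the lipase that takes the next, was measured at 16.9, 14.7 and 13.9 CPM in control and at 14.0, 15.3 and 14.7 CPM in the other group. These overlapped, with a log2 difference of -0.05 (SE 0.14), a 95% interval of -0.36 to 0.27 and an edgeR adjusted p = 0.962. Without control 1 the difference of Lipe was 0.047. The exons of Lipe share 918 of 5886 bases with 4732471J01Rik on the opposite strand, so its value is less certain if strand was not used in counting.

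Hilpda codes for a small droplet protein that inhibits ATGL and is induced by low oxygen and by fatty acids. It had 98, 43 and 63 counts in control and 36, 51 and 65 in the libraries labelled shDNAJB1, or 2.69, 1.49 and 2.10 against 1.46, 1.83 and 1.67 CPM. Control 1 and control 3 were above all the others and control 2 was among the lowest. The log2 difference was -0.34 (SE 0.31), with a 95% interval of -1.05 to 0.37 and an edgeR adjusted p = 0.843. It was -0.11 without control 1, the highest library, and -0.54 without control 2. Its counting error was 10.1% to 16.7% per library.

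By edgeR, 0 of the 9 tested members passed the threshold of 0.05, as did 0% of the 18870 genes tested, the lowest adjusted p of which was 0.765. Below 0.05 without adjustment there was 1 member, Plin4, beside 6.37% of all genes tested. DESeq2's Wald test called 1 member, again Plin4, where it called 0.109% of 21988 genes, and limma-voom called 0 members. Among the 9 tested members, 2 had groups that did not overlap, Plin4 and Dgat1, both higher, while 14% of all genes tested had groups that did not overlap, 6.98% higher and 7.06% lower. As the contrast chose Plin4, its place in these counts is not a finding, and 1 of the other 8 is near the share over all genes. The median log2 difference of these 8 was 0.01, with 4 higher and 4 lower.

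The order of the members by level was compared per kb of exon. In control it ran from Pnpla2 at 9.03 ± 0.490 CPM per kb (SD, n = 3), Plin3 at 8.39 ± 0.035 and Dgat1 at 6.82 ± 0.485 to Dgat2 at 4.62 ± 0.829 and Plin4 at 4.55 ± 1.18. Lipe at 2.57 ± 0.267, Plin2 at 2.21 ± 0.421, Hilpda at 1.90 ± 0.544 and Plin5 at 0.493 ± 0.091 CPM per kb followed, with Plin1 last. Control libraries of Dgat2 and Plin4, of Lipe and Plin2, and of Plin2 and Hilpda overlapped, so these neighbours were not separated by their spread. In the libraries labelled shDNAJB1, Plin4 had the highest mean at 11.3 ± 1.02 CPM per kb (SD, n = 3). Its lowest library there, at 10.3 CPM per kb, lay below the highest of Pnpla2, at 11.0, so the order of these was not separated either. The other 9 members held the same order among themselves in both groups.

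Plin4 also varied more within groups than most genes of its level. The SD of its log2 CPM within groups was 0.30, larger than that of 85.8% of 2679 tested genes of like level, whose median was 0.17. Dgat1 and Lipe were among the steadier genes, with an SD of 0.10 and 0.11, larger than that of 13.7% and 14.4% of genes of their level. Over the 6 libraries, Pearson's r of log2 CPM with Plin4 was 0.88 for Dgat1, 0.37 for Plin2, -0.26 for Plin3, -0.27 for Plin5 and -0.70 for Hilpda. With the group means removed, r was 0.75 for Dgat1, 0.24 for Plin2, 0.15 for Plin3, 0.20 for Plin5 and -0.76 for Hilpda. These are descriptions over 6 points that share the libraries and their scaling. No other perilipin was close to Plin4 by either measure. Since r over the 6 libraries includes the contrast that chose Plin4, a low r with perilipins of little difference follows from that choice. Plin2 and Plin5 had an r of 0.68 with each other, or 0.90 with the group means removed. The latter was the highest of all pairs of tested members, and Plin5 had only 18 to 36 counts per library.

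The 6 genes most like Plin4 by r of log2 CPM over the 6 libraries, among tested genes with a mean of at least 1 CPM, were Recql5 (0.997), Ptbp2 (0.993), Atxn7l2 (0.990), Zfp335 (0.988), Zfp512b (0.986) and Arfrp1 (0.985). All had higher means in the libraries labelled shDNAJB1, with log2 differences from 0.14 for Ptbp2 to 0.81 for Atxn7l2, each smaller than that of Plin4. With the group means removed they were Eno3, Maff and Mars2 (each 0.999), Ptbp2 and Gtf3c2 (each 0.997) and Ano6 (0.996). Exons of Zfp335 share 23.3% of their bases with Pcif1 on the opposite strand, and those of Gtf3c2 share 38.9% with Gm29609 on the same strand, so both are uncertain. No gene of the droplet lists described below was among these most alike genes. As those lists hold 106 of the 18870 genes tested, this absence says nothing about droplet genes. Both sets were picked for the highest r, so high values follow from the choice.

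Plin4, Plin5 and Plin3 lie on the same strand of chromosome 17, with the start of Plin5 7.8 kb and that of Plin3 183.1 kb from the start of Plin4. Within 250 kb on each side, 24 other protein-coding genes were tested, 11 of them with higher and 13 with lower values under the label shDNAJB1 and a median log2 difference of -0.00. One of them, named after its values were seen, was Lrg1, which codes for a secreted glycoprotein of the acute phase and of vessels and starts 12.2 kb from Plin4. Lrg1 had 47, 27 and 18 counts in control and 64, 57 and 123 in the libraries labelled shDNAJB1, or 1.29, 0.935 and 0.599 against 2.60, 2.05 and 3.15 CPM. Its groups did not overlap, and its log2 difference was 1.46 (SE 0.36), with an edgeR adjusted p = 0.765. Plin5 lies between Plin4 and Lrg1 and had a difference of -0.19, as given above. Hdgfl2, whose end meets that of Plin4 on the opposite strand, was measured at 69.6, 66.0 and 70.2 against 86.4, 75.0 and 72.5 CPM, with a log2 difference of 0.18 (SE 0.11).

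**Figure D4:**
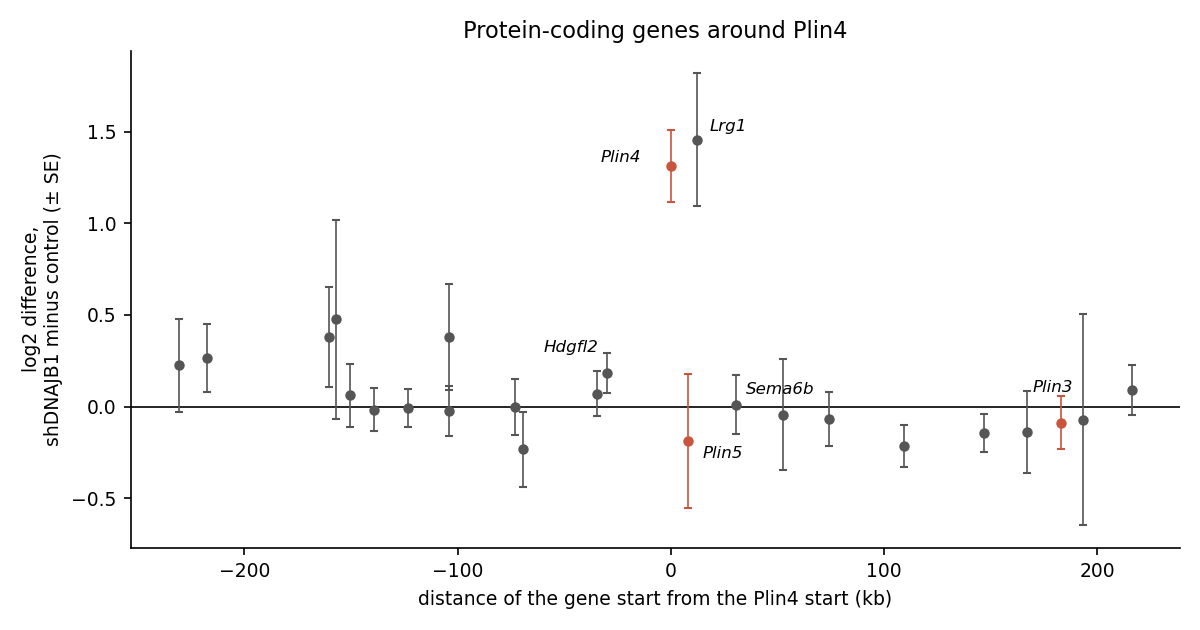
Log2 difference, shDNAJB1 minus control, with error bars of 1 SE, of tested protein-coding genes by the distance of their start from that of Plin4 in kb; perilipins are red. Plin4 at 1.31 and Lrg1 at 1.46 stand above the rest, and Plin5, which lies between them, is at -0.19.

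Promoters of 8 of the 10 members were matched to RefSeq sequences of GRCm38.p6, as 11 entries that run from 250 bases before to 50 bases after a start site. Motifs were searched on both strands. The glucocorticoid receptor motif (GNACA, then 3 bases of any kind, then TGTNC) was in none of the 11 and in 0.475% of 32851 promoters of the same length. The PPAR direct repeat (AGGTCA, 1 base of any kind, AGGTCA) was in none of the 11 and in 0.0396% of all, and the heat shock motif (GAA, TTC and GAA in a row, with 2 bases of any kind between them) was in none of the 11 and in 0.603% of all. The HIF core letters ACGTG were in 3 entries, of Hilpda, Lipe and Plin2, and in 19.6% of all promoters. The letters GCGTG, which share their last 4 bases with the former, were in 6 entries, of Hilpda, Lipe, Plin2 and Plin5, and in 32.4% of all. The entries of Hilpda overlap each other and share a GCGTG site, as do those of Plin5, so the 6 entries are not independent. None of the 5 motifs was in the promoter window of Plin4.

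The other genes of droplet biology were followed in 8 lists, with 106 genes tested. Like the members, these lists were chosen with earlier results of these data known. Past the threshold there were 0 of them by edgeR, by DESeq2 and by limma-voom, while edgeR put 16 of the 106 below 0.05 without adjustment, beside 6.37% of all genes. Of 13 tested genes for droplet assembly, 6 had higher and 7 lower values under the label shDNAJB1, with a median log2 difference of -0.09 and 1 gene at an unadjusted p under 0.05. That gene was Spart, which codes for a protein that helps clear droplets, at 70.7 ± 9.58 CPM (SD, n = 3) against 90.1 ± 3.31 CPM (SD, n = 3) in control. Fitm2, which helps droplets bud from the endoplasmic reticulum, was at 37.9 against 43.2 CPM. The log2 difference of Fitm2 was -0.19 (SE 0.11), with an unadjusted p = 0.121 by edgeR's quasi-likelihood test. For Spart and Fitm2 the groups did not overlap, both lower, which makes 2 of the 13 beside 7.06% of all genes.

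Genes of glycerolipid synthesis leaned towards lower values, in 12 of 16 tested, with a median log2 difference of -0.18 and 4 at an unadjusted p under 0.05. In 6 of the 16 the groups did not overlap, all lower, beside 7.06% of all genes. The 4 genes with higher values were Agpat2, Lpin3, Lpin2 and Mogat1, with log2 differences of 0.77, 0.66, 0.06 and 0.01. Agpat2 and Lpin3 thus went the other way from Agpat3 and Lpin1 of the same families. The genes below were the 4 lowest in unadjusted p, and all were lower. Gpam, which starts the pathway, was at 82.1 ± 7.62 CPM (SD, n = 3) against 107 ± 16.9 CPM (SD, n = 3) in control, a log2 difference of -0.39 (SE 0.14). Agpat3, an acyltransferase of the next step, was at 215 against 273 CPM, a log2 difference of -0.34 (SE 0.12). Lpin1, a phosphatase that makes the diglyceride used by DGAT enzymes, was at 62.6 against 76.9 CPM. Acsl6, which activates fatty acids, was at 272 against 330 CPM. Markers of oligodendrocytes, the cells that make myelin, had lower values as well, in 11 of 11, with a median of -0.53 and a summed level of 15841, 12545 and 8731 CPM in shDNAJB1 1, 2 and 3 against 15068 to 16227 CPM in control. Their part in the lower values of this list, and of the other lists with lower medians, was not tested. Of 3 tested genes for sterol ester storage, Soat1, Nceh1 and Lipa, all had lower means, with log2 differences from -0.22 to -0.10.

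Among 12 tested genes of lipolysis other than the members, 6 were higher and 6 lower, with a median of -0.07 and 0 at an unadjusted p under 0.05. Abhd5, which codes for the activator of ATGL, was measured at 22.0, 23.8 and 24.0 CPM in control and at 20.4, 19.7 and 14.8 CPM in the libraries labelled shDNAJB1. Its groups did not overlap, and its log2 difference was -0.34 (SE 0.15, edgeR adjusted p = 0.765). Exons of Abhd5 share 16.0% of their bases with A730085K08Rik on the opposite strand. Abhd6 and Pnpla8 also had lower groups that did not overlap, with log2 differences of -0.32 and -0.15, which makes 3 of the 12 beside 7.06% of all genes.

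Of 19 tested genes for the uptake, binding and oxidation of fatty acids, 9 were higher and 10 lower, with a median of -0.15 and 2 at an unadjusted p under 0.05. This median varied with the library left out, by less than the spread between libraries. It was 0.011 without control 1, -0.028 without shDNAJB1 3 and -0.24 without shDNAJB1 1. The 2 genes at an unadjusted p under 0.05 were Pdk4 and Cpt1b. Pdk4, which spares glucose when fat is burned, was at 11.8 against 15.6 CPM. Cpt1b codes for the muscle form of the enzyme that admits fatty acids to mitochondria. Cpt1b had 7, 6 and 20 counts in control and 60, 22 and 30 in the libraries labelled shDNAJB1. It shares 81.4% of its exonic bases with Gm44502 on the same strand, so its value is uncertain. Cpt1a, the liver form, was at 35.1 against 44.8 CPM, with overlapping groups.

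Known regulators of droplet genes were lower for 14 of 17, with a median of -0.18 and 2 at an unadjusted p under 0.05. These were Rxra, the partner of PPAR receptors, at 34.5 ± 1.40 CPM (SD, n = 3) against 43.9 ± 1.76 CPM (SD, n = 3), and Nr3c1, the glucocorticoid receptor, at 70.4 ± 7.38 CPM (SD, n = 3) against 91.8 ± 4.97 CPM (SD, n = 3). The log2 differences were -0.35 (SE 0.10) for Rxra and -0.38 (SE 0.12) for Nr3c1. Hypoxia-responsive genes were higher for 4 and lower for 6 of 10, with a median of -0.09 and 3 at an unadjusted p under 0.05. Pfkfb3, a driver of glycolysis, was at 53.9 against 73.6 CPM and Adm, the gene of adrenomedullin, at 1.30 against 2.26 CPM, while Ankrd37 was at 4.01 against 2.81 CPM. Exons of Ankrd37 share 22.7% of their bases with Lrp2bp on the opposite strand, so its value is uncertain.

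Brain genes known to respond to glucocorticoids were higher for 12 and lower for 6 of 18, with a median of 0.09 and 5 at an unadjusted p under 0.05. In 5 of the 18 the groups did not overlap with shDNAJB1 higher, beside 6.98% of all genes, and in 2 with shDNAJB1 lower, beside 7.06%. Cdkn1a, a cell cycle inhibitor, was at 17.3 ± 2.20 CPM (SD, n = 3) against 10.7 ± 1.08 CPM (SD, n = 3), a log2 difference of 0.68 (SE 0.16). Map3k6, a stress kinase, was at 7.51 against 3.69 CPM, and Lcn2, an acute phase gene of glia and vessels, at 9.90 against 2.31 CPM. Klf9, a transcription factor that glucocorticoids induce, went the other way, at 119 against 159 CPM, a log2 difference of -0.41 (SE 0.14). So did Pdk4, also in the fatty acid list above, at 11.8 against 15.6 CPM, a log2 difference of -0.41 (SE 0.16). In these 2 genes the groups did not overlap. The genes above were named for a low unadjusted p. The rest of the list ran from -0.24 for Errfi1 and -0.21 for Sgk1 to 0.30 for Mt2 and 0.41 for Sult1a1. Between these, Fkbp5 and Per1 were each at 0.09 and Tsc22d3 at -0.09. The list held genes of both directions and was chosen with earlier results of these data known. The median of the list was 0.0072 without shDNAJB1 1 and 0.21 without control 1. It was 0.26 without control 1 and shDNAJB1 3, a pair chosen after seeing the data.

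**Figure D5:**
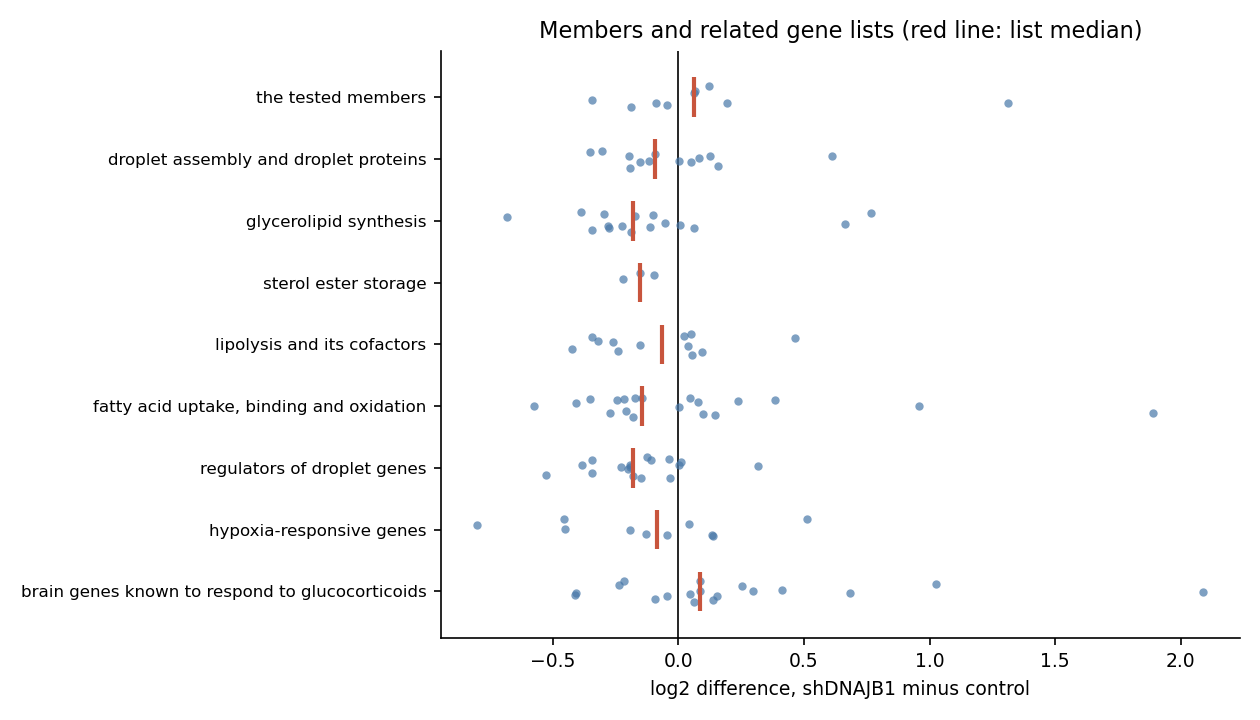
Log2 difference, shDNAJB1 minus control, of each tested gene (points) of the droplet genes and of 8 related lists, with list medians as red lines. Plin4, the rightmost point of the top row at 1.31, stands apart from the other members, and list medians lie between -0.18 and 0.09.

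Markers of adipocytes and muscle, where Plin4 is best known, and of vessels were looked at in the same libraries. Of 8 adipocyte markers, Lep, Cfd and Cidec had 0 counts in every library, and Adipoq, Retn and Fabp4 had at most 5. The summed level, carried by Thrsp and Adrb3, was 7.77 to 8.27 CPM in the libraries labelled shDNAJB1 and 7.65 to 9.14 CPM in control. The adipocyte perilipin Plin1 was near 0 as well, as given above. The summed level of 8 skeletal muscle markers was 2.88 to 6.25 CPM against 2.96 to 5.43 CPM. Of the 3 muscle markers with enough counts to test, 1 was higher and 2 were lower, none past the threshold. Among the untested ones, Myh4, a muscle myosin, had 0 counts in each control and 3, 19 and 97 in shDNAJB1 1, 2 and 3. Tnni2 went the other way, with 16, 11 and 7 counts in control and 4, 0 and 2 in shDNAJB1 1, 2 and 3. All 8 endothelial markers had higher fitted values, with a median log2 difference of 0.17. Their summed level was 573.0, 415 and 353 CPM in shDNAJB1 1, 2 and 3 and 362 to 402 CPM in control, so that shDNAJB1 1 alone was well above control and shDNAJB1 3 was below it. Mural and fibroblast markers were higher for 8 of 10, with a median of 0.22 and summed levels of 398, 257 and 215 CPM in shDNAJB1 1, 2 and 3 against 173 to 283 CPM, again highest in shDNAJB1 1. Plin4 differed by 1.31 without shDNAJB1 1, as with it, but summed marker levels in bulk tissue cannot show which cells carry Plin4. The part of adipocytes, muscle, endothelial, mural and fibroblast cells in the level of Plin4 was not tested.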

How the data were processed

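Per the labels' protocols, RNA was extracted with Trizol and TruSeq libraries kept its strand. The authors deposited raw counts per Ensembl gene, with a file for each library. The submitters' processing notes name the build mm10 and the tools STAR 2.5.3a, FastQC 0.11.5, DESeq 1.16.1 and Cuffnorm. Not given in the sources used here are the counting tool, annotation release and strand setting. GENCODE M21 matched 55154 of 55335 identifiers, and Ldaf1 was not matched. Sequences are from GENCODE M21 transcripts and RefSeq promoters (GRCm38.p6).

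Groups came from the titles. Of 33190 genes with a count, 18870 passed filterByExpr (minimum count 10, minimum total 15), 9 members among them. After TMM scaling, groups were compared by edgeR 4.0.16 (R 4.3.3), using its quasi-likelihood test, and p was adjusted by Benjamini-Hochberg over all genes, with a threshold of 0.05. The biological coefficient of variation was 24.1%, beside counting errors of 2.08% to 3.85% for Plin4, and counting errors cover counting only. The procedure was tested on simulated data. Members and lists were chosen with earlier results of these data known. Named genes were Dnajb1, the members, from each list up to 4 genes lowest in unadjusted p and any behind a count of 5 or fewer, and the 6 genes most like Plin4. The window around Plin4 and the search for repeated stretches were added after seeing the data. Alternatives were other filters, DESeq2 size factors, upper-quartile scaling, DESeq2 1.42.0, limma-voom (limma 3.58.1), a replicate block, leaving out each library and, added after seeing the data, leaving out control 1 with shDNAJB1 3.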

Additional observations from a re-analysis of the deposited data

How the results depend on the processing

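Of the values recomputed under alternatives, 290 either kept their direction and their side of the threshold or moved by less than the spread between replicates. Of these 290, 6 crossed 0 within that spread, 9 more values changed sign and 7 moved beyond the spread. DESeq2's Wald test called 24 genes and 1 member, Plin4, where every edgeR and limma-voom setting called 0 of each. Leaving out each library in turn gave 0 genes, 0 members and 751 to 2514 genes at an unadjusted p under 0.05. The log2 difference of Plin4 was 1.12 to 1.46 and its gap to the other perilipins 1.20 to 1.52 when each library was left out, and they were 1.19 and 1.24 without control 1 and shDNAJB1 3. Under the remaining settings they were 1.30 to 1.36 and 1.29 to 1.42. When each library was left out, the differences ranged from -0.17 to 0.011 for Dnajb1, 0.0037 to 0.28 for Plin2, -0.24 to 0.022 for Plin3, -0.38 to 0.0073 for Plin5, -0.040 to 0.23 for Dgat2, -0.063 to 0.14 for Pnpla2, -0.10 to 0.047 for Lipe and -0.54 to -0.11 for Hilpda. The list medians ranged from -0.11 to 0.00054 for droplet assembly, from -0.24 to 0.011 for fatty acid uptake, binding and oxidation, from -0.21 to -0.10 for regulators, from -0.20 to -0.0064 for hypoxia-responsive and from 0.0072 to 0.21 for glucocorticoid-responsive genes, and that of the 8 members other than Plin4 from -0.040 to 0.067. Without control 1 and shDNAJB1 3, chosen after seeing the data, Plin3 was at 0.024, Lipe at 0.045, the fatty acid median at 0.031 and the glucocorticoid-responsive median at 0.26. The cause of these changes was not tested. Other scalings moved the median over all genes to at most 0.023. Deviations from the group means had correlations of 0.04, -0.02 and 0.08 between libraries of the same replicate number. With 3 libraries per group, these cannot decide whether replicate numbers pair the libraries. The fit with a replicate block gave 0 genes, 0 members and differences of 1.34 for Plin4 and -0.09 for Dnajb1. It put 1458 genes at an unadjusted p under 0.05, against 1202 in the main fit. Plin1, with 15 counts in all, could not be compared at this depth.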
